A study of Mus musculus with 32 samples.

Results

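The HoxC cluster is the group of 9 homeobox genes, Hoxc4, Hoxc5, Hoxc6, Hoxc8, Hoxc9, Hoxc10, Hoxc11, Hoxc12 and Hoxc13, that lie side by side on mouse chromosome 15 and are all read from the plus strand. The region examined ran from 20 kb beyond Hoxc13 to 20 kb beyond Hoxc4 in the mm10 build, chr15:102901103-103056852, a length of 155.75 kb. Every ATAC-seq peak summit that the 32 deposited lists place there was taken and assigned to the nearest start of a member gene, the start of a gene being that of its principal transcript in GENCODE. This gave 354 of the 1234971 summits in all lists. A summit is the highest point of a peak, where the transposase Tn5 cut most often and the DNA was most accessible.

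Hox genes encode transcription factors that give cells their position along the body axis, and their order on the chromosome follows the order in which they are used from head to tail. In mouse embryos Hoxc4, Hoxc5 and Hoxc6 are used at the level of the neck, forelimb and upper trunk, Hoxc8 and Hoxc9 in the trunk, and Hoxc10, Hoxc11, Hoxc12 and Hoxc13 towards the tail. Hoxc10 and Hoxc11 are known in the limb as genes of the hindlimb rather than the forelimb, while Hoxc13 is best known for its role in hair and nails. The forelimb and hindlimb libraries of this series allow the accessible sites around each of these genes to be compared.

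Limb buds were from mouse embryos. E10.5 FL EYFP+ and E10.5 HL EYFP+ were 3 libraries each of EYFP-positive cells sorted from forelimbs and hindlimbs of E10.5 embryos carrying the Etv2-EYFP transgene, in which an Etv2 promoter drives EYFP, and cells with the endothelial or blood markers CD31, TIE2 or CD45 had been left out. The labels of replicates 1, 2 and 3 carry the numbers 748, 753 and 758 in both limbs and do not say what the numbers stand for. E9.5 HL was 1 library of wild-type hindlimb, E10.5 Posterior 1 library of Shh-EGFP-positive posterior hindlimb cells and E10.5 Anterior 1 library of anterior hindlimb from Shh-EGFP embryos. E10.5 CKO (2 libraries) and E10.25 CKO (5 libraries) were pooled posterior hindlimbs of embryos with HoxB6-Cre, which acts in the whole hindlimb precursor, with 1 floxed and 1 null Etv2 allele, and E10.25 WT was 2 libraries of pooled wild-type posterior hindlimbs. The Etv2OE embryos carried HoxB6-Cre, a doxycycline-inducible HA-tagged Etv2 and a ROSA26 rtTA-IRES-EGFP cassette behind a stop signal, and were exposed to doxycycline. Their controls were littermates that lacked a transgene. The doxycycline was injected into the pregnant dams, so these littermates were exposed to it too. Hindlimbs of single embryos were divided into anterior and posterior portions, giving 4 anterior and 4 posterior control libraries from embryos 1 to 4 and 3 anterior and 3 posterior Etv2OE libraries from embryos 7, 9 and 10, all labelled E10.5. The methods of the study describe a later harvest for embryos given doxycycline, so the stage of these libraries is uncertain, and the labels give only the letters A and P, read here as anterior and posterior. Only the E10.5 FL EYFP+ libraries were from forelimb, and the other 29 were from hindlimb.

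The summits fell into 68 sites when neighbours at most 150 bp apart were joined, a distance chosen after the data were seen. Of these, 31 were listed in 1 library, and 7 were listed in at least 20 of the 32 libraries and held 186 of the 354 summits. Of these 7 sites, 6 are shown first, as 200 bases of the plus strand of mm10 around the median summit, since the comparisons turn on them. The site 884 bp past the Hoxc4 start is shortened to 63 bases so that no annotated UTR is printed. Also shown is the interval listed in all hindlimb and no forelimb EYFP+ libraries in lists of equal length, which other hindlimb groups list too. The Hoxc9 intron site listed in 3 of 4 posterior and no anterior control libraries is added. Capitals mark matches on either strand to TTTATTG or the related TTTATGG (bound by HOX proteins), TAATTA (homeodomain), TAATCC (PITX), AGGAAGT (ETS), GGTGTGA (T-box), TGATTGAC (PBX), TGACAG (MEIS), and to the CTCF core in part, as AGGGGGC or its variants AGGTGGC or else AGATGGC, of which none overlapped another in these windows.
Hoxc13 start, chr15:102920716-102920915: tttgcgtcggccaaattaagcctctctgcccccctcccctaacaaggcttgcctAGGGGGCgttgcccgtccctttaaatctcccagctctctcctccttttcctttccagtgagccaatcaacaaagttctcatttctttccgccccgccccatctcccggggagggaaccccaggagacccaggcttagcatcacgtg
Between Hoxc11 and Hoxc10, chr15:102959812-102960011: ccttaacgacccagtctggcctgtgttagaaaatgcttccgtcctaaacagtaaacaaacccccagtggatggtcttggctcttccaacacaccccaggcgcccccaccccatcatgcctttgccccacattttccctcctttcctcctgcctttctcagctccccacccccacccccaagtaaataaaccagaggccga
Between Hoxc11 and Hoxc10, hindlimb interval, chr15:102959994-102960193: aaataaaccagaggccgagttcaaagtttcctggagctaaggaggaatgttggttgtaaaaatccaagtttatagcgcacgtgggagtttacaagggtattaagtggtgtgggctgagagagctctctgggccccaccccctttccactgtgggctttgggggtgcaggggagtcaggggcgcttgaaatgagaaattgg
Hoxc9 intron, chr15:102983547-102983746: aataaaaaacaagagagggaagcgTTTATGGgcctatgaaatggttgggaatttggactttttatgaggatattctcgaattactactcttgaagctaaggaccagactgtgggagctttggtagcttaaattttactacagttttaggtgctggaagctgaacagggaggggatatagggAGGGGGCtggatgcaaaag
Between Hoxc8 and Hoxc6, chr15:102999255-102999454: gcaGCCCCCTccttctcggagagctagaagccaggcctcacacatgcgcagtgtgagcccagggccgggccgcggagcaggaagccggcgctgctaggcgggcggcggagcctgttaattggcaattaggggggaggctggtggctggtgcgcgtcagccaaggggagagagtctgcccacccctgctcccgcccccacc
Hoxc5 intron, chr15:103014473-103014672: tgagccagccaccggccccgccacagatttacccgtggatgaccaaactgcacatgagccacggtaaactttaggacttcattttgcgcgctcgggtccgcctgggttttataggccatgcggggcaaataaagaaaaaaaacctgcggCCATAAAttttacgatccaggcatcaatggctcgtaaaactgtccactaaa
Upstream of Hoxc4, chr15:103032827-103033026: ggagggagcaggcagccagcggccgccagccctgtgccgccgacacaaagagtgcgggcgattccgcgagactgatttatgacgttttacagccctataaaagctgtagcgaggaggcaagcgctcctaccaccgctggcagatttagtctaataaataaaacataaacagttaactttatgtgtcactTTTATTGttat
Hoxc4 intron, chr15:103035316-103035378: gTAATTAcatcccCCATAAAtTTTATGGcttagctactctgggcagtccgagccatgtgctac

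The HOX letters TTTATGG were found at the Hoxc5 site, the Hoxc9 site and, on both strands, at the Hoxc4 intron site, where TAATTA lay a few bases away. TTTATTG was found at the site upstream of Hoxc4. The letters AGGGGGC were at the Hoxc13 start, the Hoxc9 site and the site between Hoxc8 and Hoxc6. Neither window between Hoxc11 and Hoxc10 held any of the letters searched. Over all 186170 intervals of 200 bp that the 32 lists define, TTTATGG was in 4.47% and AGGGGGC in 5.7%, against 12.9% and 11.4% of the 70 HoxC intervals, which are 9 and 8 intervals. TTTATTG was in 5.1% of all intervals, TAATTA in 7.74%, AGGTGGC in 5.72%, AGATGGC in 5.68%, TAATCC in 5.9%, AGGAAGT in 5.56%, GGTGTGA in 2.73%, TGACAG in 14.7% and TGATTGAC in 0.434%. In HoxC intervals these shares were 4.29%, 4.29%, 4.29%, 1.43%, 1.43%, 5.71%, 4.29%, 4.29% and 0%. A match is a run of letters and was not tested for binding. The GC content of the 200-base windows shown ranged from 42.5% at the Hoxc9 site to 70% between Hoxc8 and Hoxc6, around a mean of 51% for all intervals.

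**Figure D1:**
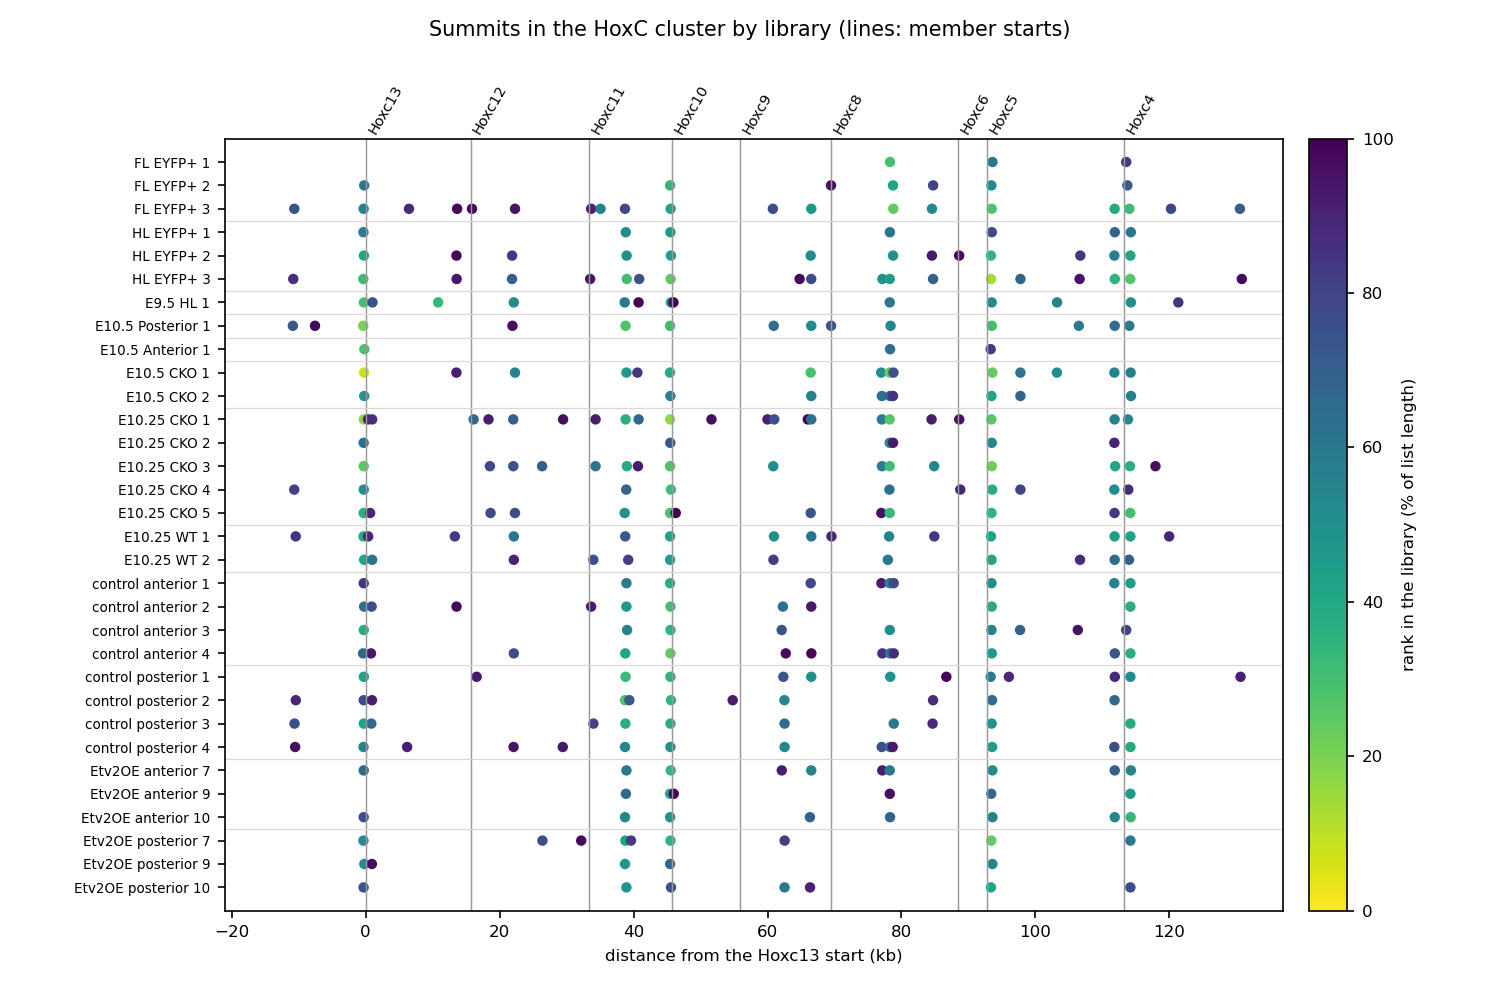
Each point is a summit of 1 library (rows), placed by its distance from the Hoxc13 start in kb and coloured by its rank as a percentage of the list length, with the best ranks in yellow. The vertical lines are the member starts. Columns of points recur at the Hoxc13 and Hoxc10 starts, between Hoxc11 and Hoxc10, between Hoxc8 and Hoxc6, in the Hoxc5 intron and on both sides of the Hoxc4 start.

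The number of HoxC summits differed between libraries of the same group. E10.5 FL EYFP+ had 3, 7 and 19 HoxC summits in replicates 1, 2 and 3, and E10.5 HL EYFP+ had 7, 13 and 19. Replicate 3 was the highest and replicate 1 the lowest in both limbs, and the limbs overlapped. The list lengths were 37211, 46043 and 48381 summits in forelimb and 32245, 41281 and 34360 in hindlimb, so the forelimb libraries had fewer HoxC summits per 1000 listed in every replicate (0.0806 against 0.217, 0.152 against 0.315 and 0.393 against 0.553). E10.5 Anterior had the shortest list, 13763 summits, and 3 in HoxC. E10.25 CKO ranged from 6 to 23 around a median of 13, in lists of 15626 to 42742 summits, and E10.25 WT had 12 and 16. Control anterior libraries had 9 to 13, control posterior 11 to 14, Etv2OE anterior 6 to 10 and Etv2OE posterior 5 to 9. The values in the lists rank the summits within a library and hold no read counts, so the depth is unknown, and a missing summit is not evidence of a closed site.

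**Figure D2:**
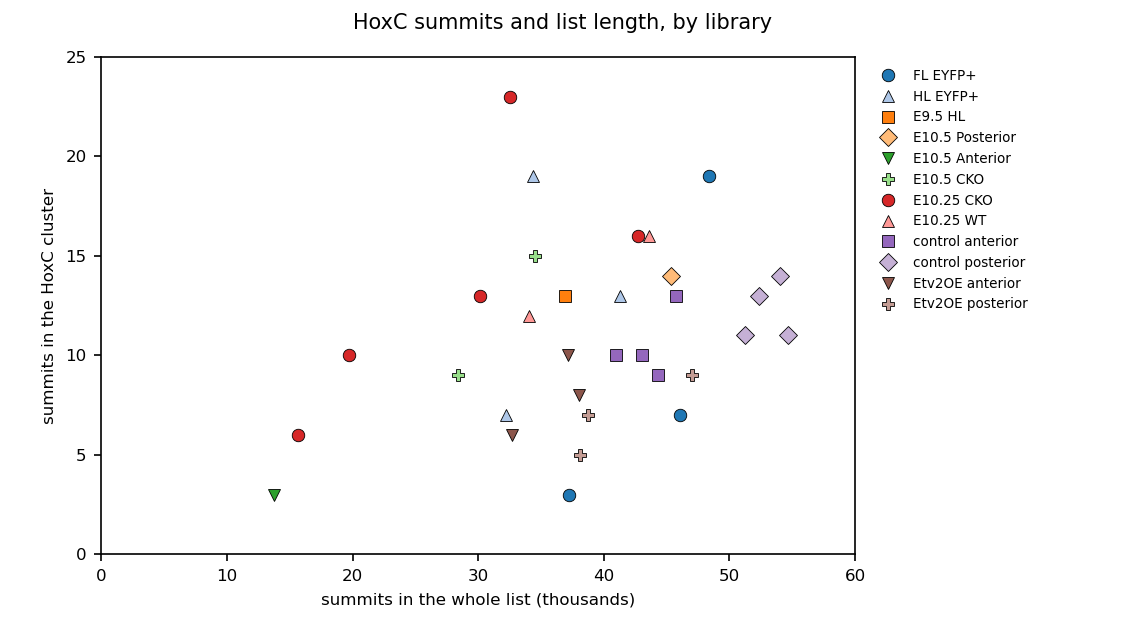
HoxC summits per library (vertical axis) against the number of summits in the whole list in units of 1000 (horizontal axis), 1 point per library and 1 symbol per group. The 3 forelimb points lie at 3, 7 and 19 summits, and the E10.25 CKO points spread from 6 to 23.

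Replicate 3 had the most summits at every Hox cluster in both limbs, and not in HoxC alone. FL EYFP+ replicates 1, 2 and 3 had 8, 4 and 30 summits in HoxA, 0, 4 and 29 in HoxB and 4, 12 and 24 in HoxD. HL EYFP+ replicates had 6, 8 and 24 in HoxA, 3, 12 and 18 in HoxB and 6, 14 and 20 in HoxD. The forelimb identity of these cells could be checked in part from other genes. The starts of Tbx4 and Pitx1, genes of hindlimb identity, had a summit within 500 bp in 3 of 3 HL EYFP+ libraries each and in 1 of 3 FL EYFP+ libraries each, that of replicate 3. The start of Isl1, which also belongs to early hindlimb development, had one in all 6 EYFP+ libraries and did not separate the limbs. The start of Tbx5, the forelimb gene, had no summit in any of the 32 libraries and so checked nothing. The mesenchymal genes Prrx1, Twist1 and Msx1 had a summit at the start in 29, 31 and 29 of 32 libraries. Of the endothelial and blood genes, Pecam1, Cdh5 and Ptprc had none, Tek had one in 4 libraries, Gata1 in 1, and Kdr, which mesoderm also uses, in all 32. The muscle genes Pax3 and Myf5 had one in 13 and 6 libraries, and the ectoderm genes Fgf8, Epcam and Krt14 in 3, 4 and 0. Of 3 HL and 3 FL EYFP+ libraries, Myf5 had one in 2 and 0, and Pax3 and Prrx1 each in 3 and 2. Twist1 and Msx1 had one in 3 and 3, and Tek in 0 and 1. The part of other cell types in the comparisons was not tested. The replicate number was entered as a block in the comparison of the limbs below.

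Within 500 bp of the start, Hoxc13 and Hoxc10 had a recurrent summit and the other members did not. This grouping depends on the window, since within 1000 bp Hoxc5 and Hoxc4 had a summit in 32 and 28 libraries, and within 250 bp Hoxc13 had one in 7. Hoxc13 and Hoxc10, both genes of the tail end of the cluster, had a summit within 500 bp of the start in 30 of 32 libraries each. The libraries without one were FL EYFP+ replicate 1 and Etv2OE anterior 9 for Hoxc13, and FL EYFP+ replicate 1 and E10.5 Anterior for Hoxc10. No other member had one in more than 3 libraries. Hoxc4, Hoxc6, Hoxc8 and Hoxc11 had one in 3 libraries each, Hoxc12 in 2, and Hoxc5 and Hoxc9 in 0. The 14 summits at the starts of Hoxc4, Hoxc6, Hoxc8, Hoxc11 and Hoxc12 ranked from 67.1% to 98.2% of the way down their lists, whereas the median was 49.6% at Hoxc13 and 37.5% at Hoxc10. Of the 22 HoxA, HoxB and HoxD genes looked at in the same way, none had a summit in more than 23 libraries, and that gene was Hoxd10. Their median was 11 libraries, against 3 for the 9 HoxC members. Of the cofactors, Meis1 had a start summit in 26 libraries, Pbx3 in 2 and Meis2 in 0, and the limb genes Isl1, Fgf10, Tbx4, Pitx1 and Tbx5 in 32, 31, 27, 25 and 0.

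**Figure D3:**
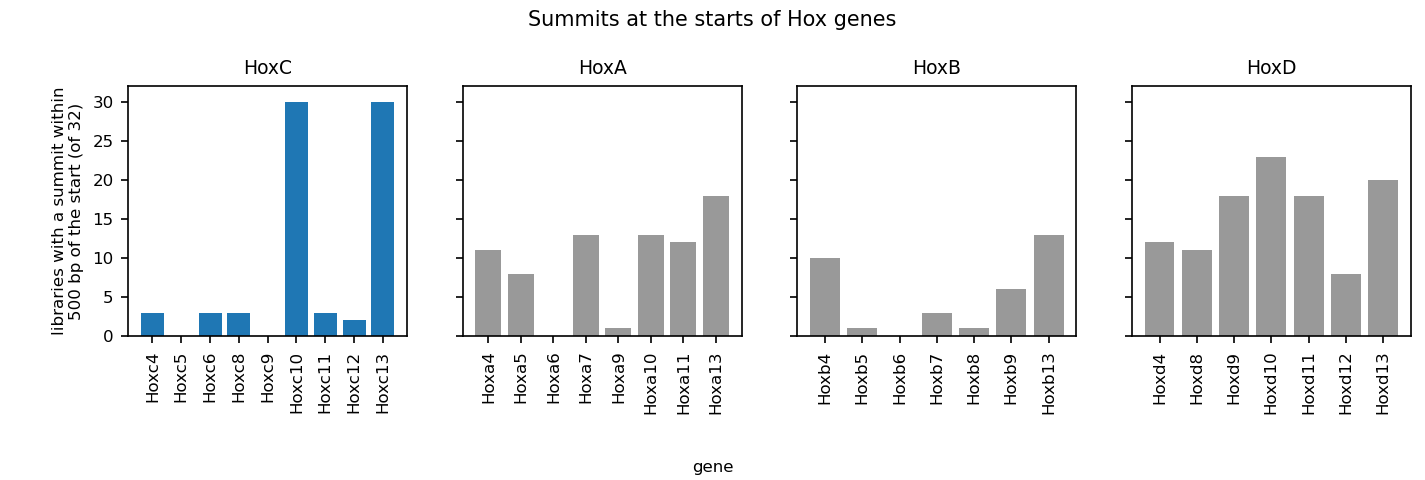
Number of the 32 libraries (vertical axis) with a summit within 500 bp of the start of each Hox gene (horizontal axis), by cluster. Hoxc10 and Hoxc13 reach 30 libraries, and no gene of the other clusters exceeds 23.

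The Hoxc13 start site (chr15:102920719-102920909, median 287 bp upstream of the start, intergenic) ranked best in E10.5 CKO 1, at place 2742 of 34493. HL EYFP+ replicates 1, 2 and 3 ranked it 18434, 16785 and 10777. FL EYFP+ replicates 2 and 3 ranked it 27614 and 26974, and replicate 1 did not list it. As a share of list length the limbs overlapped, at 57.2%, 40.7% and 31.4% in hindlimb and 60% and 55.8% in forelimb. In control hindlimb it ranked from 37.8% to 85.4% of the way down the lists in the anterior portion and from 42.2% to 77.8% in the posterior portion, which overlapped. It was at 66.6% and 76.4% in the 2 Etv2OE anterior libraries that listed it, and between 52.4% and 74.1% in the posterior ones.

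The Hoxc12 and Hoxc11 genes lie next. Hoxc12 had 26 summits at 10 sites, 6 of them in 1 library only, and the most frequent lay 6411 bp past its start, listed in 10 libraries, at 52.5% to 96.7% of the list. That site is intergenic, between Hoxc12 and the non-coding gene Hotair. FL EYFP+ did not list it, and HL EYFP+ replicates 2 and 3 did at ranks 34750 and 24337. Hoxc11 had 41 summits, of which 26 belonged to 1 site 5485 bp past its start, described next.

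The site between Hoxc11 and Hoxc10 (chr15:102959775-102960136, intergenic) was listed more often in hindlimb than in forelimb EYFP+ cells. It was listed by 26 libraries, namely 3 of 3 HL EYFP+, all 8 control and all 6 Etv2OE libraries, 4 of 5 E10.25 CKO, 1 of 2 E10.5 CKO, 1 of 2 E10.25 WT, E9.5 HL and E10.5 Posterior, and 1 of 3 FL EYFP+. HL EYFP+ replicates 1, 2 and 3 ranked it 16554, 19853 and 10396. FL EYFP+ replicate 3 ranked it 38231 of 48381, and replicates 1 and 2 did not list it. As a share of list length these were 51.3%, 48.1% and 30.3% in hindlimb and 79% in the forelimb library that listed it. Among the hindlimb libraries, control posterior ranked it at 27.9% to 54.3% of the list and control anterior at 41.8% to 57.9%. The summits within the site spread over 362 bp.

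The Hoxc10 start site (median 186 bp upstream, intergenic) was ranked 14538, 18366 and 8572 in HL EYFP+ replicates 1, 2 and 3. FL EYFP+ replicates 2 and 3 ranked it 15971 and 20239, inside or close to the hindlimb range, and replicate 1 did not list it. Its best rank was 5246, in E10.25 CKO 1. It was at 24.6% to 37.2% of the list in control anterior and 34.5% to 48.9% in control posterior libraries. Sites are alike here in the sense that both were listed or both were not in the same library: the Hoxc13 and Hoxc10 start sites were alike in 30 of 32 libraries. Sites listed in nearly every library are alike by this measure whatever their pattern, so the value says little for them. The site between Hoxc11 and Hoxc10 was most like the Hoxc10 start, in 28 of 32 libraries.

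The middle of the cluster, from Hoxc9 to Hoxc6, held fewer sites listed in at least 20 libraries than either end. Hoxc9, a trunk gene, had 18 summits at 7 sites in 15 libraries, the best at rank 21768, and none within 500 bp of its start. HL EYFP+ listed none near Hoxc9 and FL EYFP+ 1, in replicate 3. Hoxc8 had 65 summits at 9 sites, but 43 fewer when the upstream starts of Hoxc6 were counted, since Hoxc6 has other annotated starts between Hoxc8 and its principal one. The site 2976 bp upstream of Hoxc8 was listed in 16 libraries, 1 of 3 FL EYFP+ and 2 of 3 HL EYFP+ among them. The site between Hoxc8 and Hoxc6 (chr15:102999250-102999472), 1098 bp past an upstream Hoxc6 start, was listed in 22 libraries. It was the best-ranked HoxC site of FL EYFP+ replicate 1, at 11016, and HL EYFP+ replicates 1 and 3 ranked it 19859 and 15436, while the other 3 EYFP+ libraries did not list it. A neighbouring site 510 bp further on was listed by FL EYFP+ replicates 2 and 3, at 19298 and 11889, and by HL EYFP+ replicate 2, at 20390. Each EYFP+ library therefore listed 1 of these neighbours. Etv2OE posterior listed neither. Hoxc6 itself, with 13 summits in 11 libraries, had its best rank at 17644.

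Hoxc5 and Hoxc4 are the genes of this cluster used furthest towards the head. The Hoxc5 site was listed in all libraries of both limbs. The recurrent Hoxc4 sites were listed in 3 of 3 HL EYFP+ and in fewer FL EYFP+ libraries, while close to the Hoxc4 start the count ran the other way. Within 500 bp of the Hoxc4 start, 2 of 3 FL EYFP+ and 0 of 3 HL EYFP+ libraries had a summit, of which that of replicate 2 belongs to the intron site described after it. The Hoxc5 intron site (chr15:103014419-103014683) was the only HoxC site listed in all 32 libraries, at 13.6% to 83.3% of the list. FL EYFP+ replicates 1, 2 and 3 ranked it 22179, 24255 and 13377, and HL EYFP+ 24987, 13941 and 4673, which overlapped. Its printed window starts in the last bases of the first coding exon, and the miRNA gene Mir615 lies a little downstream in the same intron. Of the Hoxc4 sites, that 1468 bp upstream of the start was listed by 3 of 3 HL EYFP+ at ranks 21807, 23646 and 12208 and by FL EYFP+ replicate 3 at 18980, and by 20 libraries in all. The site in the Hoxc4 intron (chr15:103034827-103035367), part of which is UTR in another Hoxc4 transcript, was listed by 26 libraries. HL EYFP+ ranked it 19196, 16862 and 9042, and FL EYFP+ replicates 2 and 3 ranked it 33195 and 15234.

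**Figure D4:**
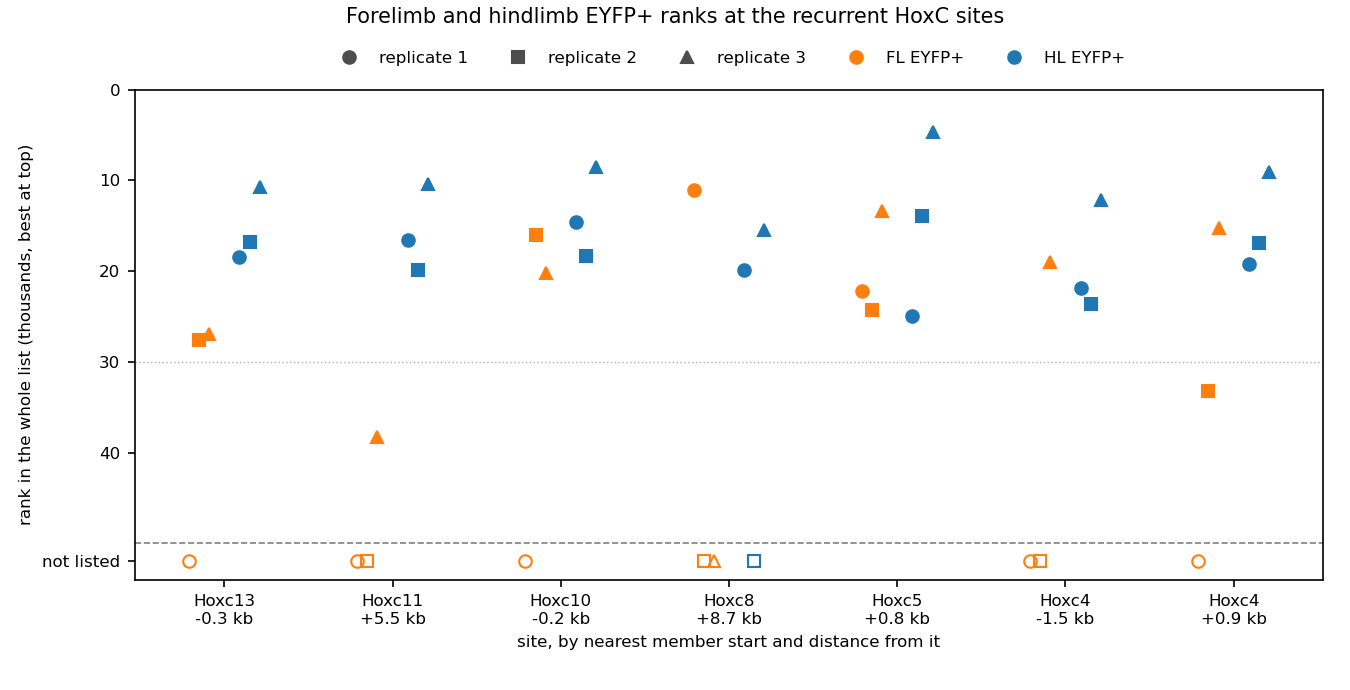
Rank in the whole list (vertical axis, in units of 1000, best at the top) of the 7 HoxC sites listed in at least 20 libraries, for forelimb (orange) and hindlimb (blue) EYFP+ cells, with 1 symbol per replicate and open symbols for sites not listed. The dotted line is rank 30000. The hindlimb symbols lie above the forelimb ones at the Hoxc13 start and between Hoxc11 and Hoxc10, and the colours mix at the Hoxc5 site.

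The comparison of forelimb with hindlimb EYFP+ cells asks which accessible sites differ between the limbs, and in HoxC no interval passed the test, although the mean rank score was higher in hindlimb at 17 of 19. For the test, every list was shortened to its best 30000 summits, 200-bp intervals were placed on the summits of all libraries, and each interval had a rank score in each library, from 1 for the first rank to 0 when no summit lay within 200 bp of its centre. limma with Benjamini-Hochberg adjustment over all 66638 intervals tested called 0 of the 19 HoxC intervals in either direction, where 0.105% of all intervals were called higher in forelimb and 0.131% higher in hindlimb. The lowest adjusted p in HoxC was 0.268, and 2 of 19 had an unadjusted p under 0.05, against 2849 of all. With the shared number as a block limma called 0 of all intervals, against 157 without it, and 0 in HoxC, where 5 of 19 had an unadjusted p under 0.05, against 3525 of all. Without the block, the 2 were the interval centred 5667 bp past the Hoxc11 start (mean score 0.00 in forelimb and 0.48 in hindlimb) and the interval at the Hoxc13 start (0.06 and 0.49, adjusted p = 0.285 by limma). Of the 19 intervals, 17 had a higher mean score in hindlimb and 2 in forelimb, with a median difference of -0.066 (forelimb minus hindlimb), beside -0.00485 over all intervals, of which 47.9% were higher in forelimb. In the whole lists 20 of 31 were higher in hindlimb and 11 in forelimb, with a median of -0.033 beside 0.035 over all, and without HL replicate 3 the counts were 8 and 4 of 12, with a median of -0.11. The other clusters leaned the same way, with 24 of 28 HoxA, 15 of 20 HoxB and 20 of 24 HoxD intervals higher in hindlimb, and none called by limma. The lean was therefore not seen in HoxC alone, and no difference between clusters was tested.

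By presence, the interval centred 5667 bp past the Hoxc11 start was the only one of the 19 listed in all 3 HL EYFP+ and no FL EYFP+ library, where 0.846% of all intervals were. None was listed in all FL EYFP+ and no HL EYFP+ library, where 0.9% of all intervals were. In the whole lists FL EYFP+ replicate 3 did list the site, 266 bp from that centre. The number of HoxC intervals listed was 2, 5 and 9 in FL EYFP+ (5.33 ± 3.51, SD, n = 3) and 9, 8 and 16 in HL EYFP+ (11 ± 4.36, SD, n = 3). The ranges overlapped, but for each shared number the hindlimb value was higher. The exact permutation test over libraries was two-sided with p = 0.3, where 3 against 3 cannot go below 0.1, and the exact sign-flip test within shared numbers gave p = 0.25, the smallest that 3 pairs allow. With 0.5 of the list length the difference was -1.33 in place of -5.67 (forelimb minus hindlimb). An interval counts a summit up to 200 bp away, so 1 summit can serve neighbouring intervals. No HoxA, HoxB or HoxD gene of the 22 had a start summit in all libraries of one limb and none of the other in the whole lists.

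Between posterior and anterior control hindlimb, which differ in Shh signalling and in the use of Hox genes, no HoxC interval passed the test. limma called 0 of 20 HoxC intervals at a length of 40000 summits, where 0.732% of 88578 intervals were called higher in the posterior and 0.645% higher in the anterior portion. The lowest adjusted p was 0.31, and 5 of 20 had an unadjusted p under 0.05, against 8630 of all 88578. The mean score was higher in the anterior portion at 15 of 20 and in the posterior at 5. The median difference was -0.030 (posterior minus anterior), beside -0.0045 over all. In the whole lists 18 of 31 were higher in the posterior and 13 in the anterior portion, with a median of 0.016 beside 0.032 over all. With the embryo as a block the calls over all intervals fell from 648 and 571 to 48 and 41, and HoxC still had 0, with 2 of 20 at an unadjusted p under 0.05, against 8298 of all. By presence, 1 of 20 was listed in all 4 posterior and no anterior library, where 0.844% of all intervals were, and 0 in all anterior and no posterior library, where 0.708% were. That interval was in the Hoxc9 intron, centred 6621 bp past its start. Posterior libraries 1, 2, 3 and 4 had a summit no further than 200 bp from the centre, at ranks 39025, 27780, 35296 and 28994, and Etv2OE posterior 7 and 10 had one at 38716 and 23434. Of the anterior libraries, control 4 had one at rank 44680, beyond the 40000 compared, and control 2 had one at rank 27403 that lay further than 200 bp from the centre, as did summits of control 3 at rank 33107 and of Etv2OE anterior 7 at rank 34135. The mean score was 0.18 in the posterior and 0.00 in the anterior portion, with an adjusted p of 0.372 by limma. With the whole lists the adjusted p was 0.0115 and the interval was called by limma, as the only 1 of 31 in HoxC. Of all 104745 intervals of the whole lists, 1748 were called higher in the posterior and 397 higher in the anterior portion.

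The Etv2OE comparisons ask what forced Etv2 changes, and HoxC held no call. In the anterior portion, limma called 0 of 11 HoxC intervals, where 0.0703% of 64047 intervals were called higher in Etv2OE and 0.064% higher in control, and 0 had an unadjusted p under 0.05. None of the 11 was listed in all Etv2OE and no control library, where 0.278% of all intervals were, or the reverse, where 0.311% were. In the posterior portion, limma called 0 of 12, where 0.0729% of 72696 intervals were called higher in Etv2OE and 0.0619% higher in control, and 0 had an unadjusted p under 0.05. None of the 12 was listed in all Etv2OE and no control library or the reverse, where 0.323% and 0.366% of all intervals were. At the Hoxc5 interval centred 656 bp past the start the mean score was 0.09 in Etv2OE and 0.31 in control in the anterior portion, and 0.40 and 0.17 in the posterior portion. These opposite differences did not pass the test, and the difference between the portions was not tested. Both Etv2OE comparisons and the posterior against anterior comparison share their control libraries.

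The E10.25 CKO libraries, where Etv2 was removed, were compared with E10.25 WT, both of posterior hindlimb. In lists of 15000 summits the Hoxc5 intron site had a higher rank score in CKO. The call was lost in lists of 7500 summits and in the whole lists. Here the lists were shortened to 15000 summits, since the shortest CKO list held 15626. limma called 2 of 10 HoxC intervals higher in CKO, where 0.296% of 35451 intervals were, and 0 higher in WT, where 1.71% were. Both called intervals were counted from the same summits of the Hoxc5 intron site, so they are 1 site (mean score 0.41 in CKO and 0.03 in WT, adjusted p = 0.0378 by limma). E10.25 CKO 1 to 5 ranked it 8628, 8357, 9474, 7487 and 10486, and WT 1 and 2 ranked it 18076 and 14020, and the groups did not overlap. As a share of list length the ranks overlapped, at 22.2% to 53.5% in CKO and 41.2% and 41.5% in WT. 2 of 10 intervals, at the Hoxc10 start and between Hoxc8 and Hoxc6, were listed in all 5 CKO and no WT library, where 0.716% of all intervals were, and 0 the other way, where 2.28% were. At the Hoxc10 start WT 1 and 2 had ranks 18292 and 15068, outside the list of 15000, so the whole lists held it in both. As a share of list length it overlapped, at 16.1% to 73.4% in CKO and 42% and 44.3% in WT. In the whole lists 1 of 2 WT libraries listed the site between Hoxc8 and Hoxc6, at rank 23715. That was 54.4% of its list, inside the CKO range of 26.7% to 62.3%. A neighbouring site 8460 bp past the Hoxc8 start was listed by 1 of 2 WT libraries, at rank 20471. All 10 HoxC intervals had a higher mean score in CKO, with a median difference of 0.19, beside 59.8% and a median of 0.019 over all intervals. In the whole lists 21 of 36 HoxC intervals were higher in CKO and 15 in WT, with a median of 0.013 beside -0.049 over all. There limma called 1 of 36, 8460 bp past the Hoxc8 start, higher in WT, where 2628 of all 79371 intervals were. That interval counted summits of 2 WT libraries and 0 CKO libraries within 200 bp of its centre. One was the summit at rank 20471, and the other was that at rank 23715 of the site between Hoxc8 and Hoxc6. All 5 CKO libraries listed that site, with summits further from this centre, so the call does not mark a separate WT site. The descriptions of the CKO libraries carry 5 dates and those of the WT libraries 1 other date, so date and genotype cannot be told apart. The call was lost without E10.25 CKO 1, 2 or 3 or either WT library, and with the whole lists limma called 0 of 36 HoxC intervals higher in CKO.

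**Figure D5:**
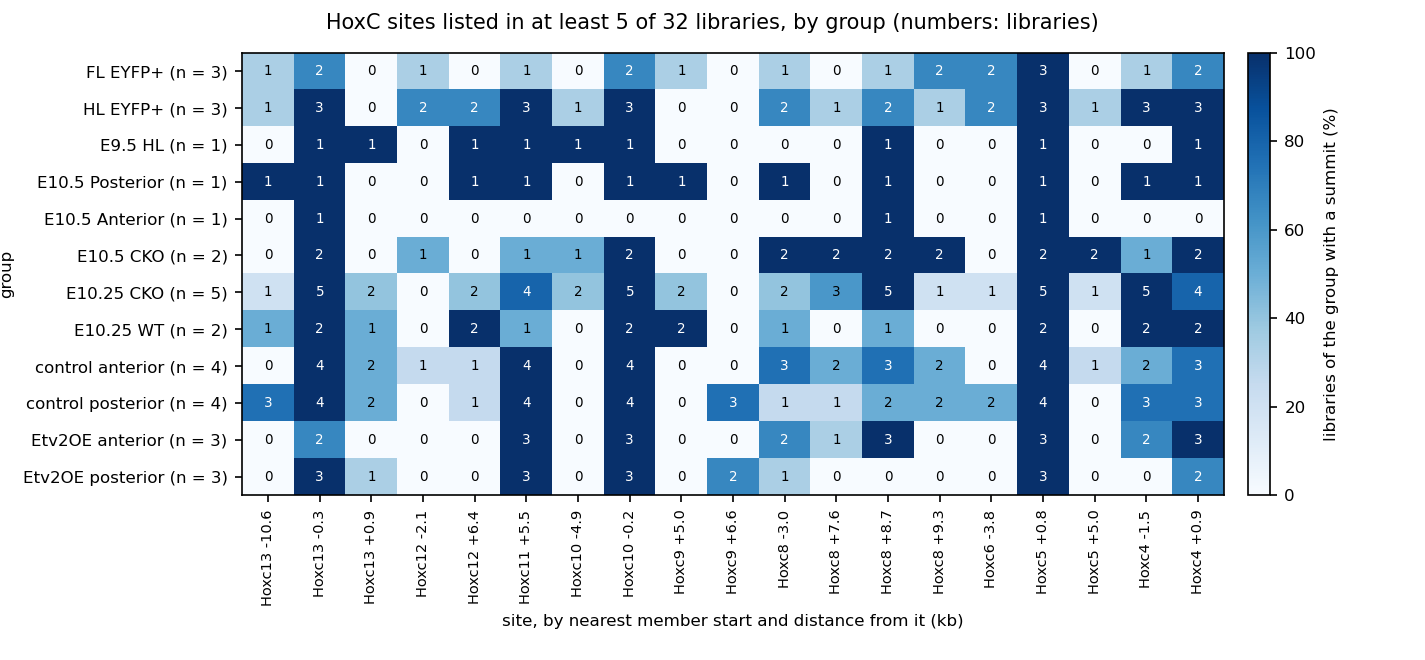
HoxC sites listed in at least 5 of 32 libraries (horizontal axis, by nearest member start and distance in kb) for each group (vertical axis). The colour is the share of the libraries of the group with a summit in the whole lists, and the numbers are libraries. The Hoxc5 site at +0.8 kb is filled in every group, and the Hoxc11 site at +5.5 kb in 1 of 3 forelimb libraries and in all hindlimb EYFP+, control and Etv2OE libraries.

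In E10.5 CKO, which has no wild-type library of its own kind here, library 1 ranked the Hoxc13 start at 2742, the site between Hoxc8 and Hoxc6 at 8204 and the Hoxc5 site at 8352, and library 2 ranked them 13787, 19461 and 11843. Both listed the sites at the upstream starts of Hoxc6 and Hoxc4, which had 10 and 5 libraries in all and none in FL EYFP+. E10.5 Posterior listed 14 HoxC summits, with the Hoxc13 start at rank 9324 and the site between Hoxc11 and Hoxc10 at 12677. E10.5 Anterior listed the Hoxc13 start at 3955, the site between Hoxc8 and Hoxc6 at 8806 and the Hoxc5 site at 11464, which were its 3 HoxC summits. E9.5 HL, the earliest stage, listed 13, with the Hoxc13 start at 11085, and all of the recurrent sites other than that upstream of Hoxc4. These groups had 1 or 2 libraries, and no test was made.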

How the data were processed

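Reads were aligned by the authors to mm10 with Bowtie2 2.2.4 (version from the submitters' processing notes), unique alignments were kept, duplicates were removed with Picard, Tn5 cut positions were shifted, and peaks were called per library with MACS2. For MACS2, no version or option is stated in the paper or labels. The deposited lists hold 1 line per summit with the −log10 of its q-value, with none above a q-value of about 0.05. Values were used only for ranks within a list. Mitochondrial summits were left out. The list length was the largest multiple of 5000 in the shortest list. Intervals of 200 bp listed in at least 2 of 32 libraries were fitted with limma 3.58.1 in R 4.3.3, without a block, at an adjusted p of 0.05. Genes were from GENCODE M21 and sequence from GRCm38.p6, the assembly of mm10. Nothing in the sources shows that replicate libraries were independent, other than those from different numbered embryos. For the EYFP+ replicates the meaning of the numbers is not stated.

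The members, lists and tests were chosen with earlier results of these data known. A cofactor gene and the sequence of 1 site are not reported here. Named were the 9 members, HoxC intervals called or listed in all libraries of one group only, the best start sites and the sites listed most often. Rank scores after removing group means correlated at 0.159, 0.158 and 0.375 between limbs of the same number and at -0.215 to 0.0615 otherwise, so the numbers were taken to pair the libraries. Anterior and posterior portions of the same embryo correlated at 0.00338 to 0.0424. On simulated data with small noise (SD 0.03) limma recovered 200 of 200 intervals shifted by 0.5 in every comparison. With residuals taken from other real intervals of like mean it recovered 0 of 200 in every comparison. The real data did give calls in every comparison, 157 of them between the limbs, so this simulation did not match them. It cannot say how large a difference the test would find, and a low count is not evidence of no difference.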

Additional observations from a re-analysis of the deposited data

Results flagged for a closer look

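The rank of the Hoxc10 start site in E10.25 CKO 2, 73.4% of the way down its list, was far from the other 4 libraries of the group, which ranked it from 16.1% to 32%. By rank it was not apart, at 11462 beside 5246 to 11903. It was found by comparing the gap to the nearest library with the range of the group in 24 sets of 4 or 5 libraries, where chance marks about 1 in 20. That library had the shortest list of its group, 15626 summits.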

How the results depend on the processing

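The alternatives were 0.5 of the list length, the whole lists, a summit within 100 bp, 500-bp intervals, no filter on the number of libraries, each library left out, and a replicate block. Sites in place of intervals was chosen after seeing the data. Of 133 values from alternatives other than leaving out a library, 112 stayed within 1.5 times of the main count or kept the direction. Most of the main counts were 0, and a count that stayed at 0 is among the 112, so this share does not measure robustness. Every count of called or one-sided HoxC intervals above 0 in the main setting changed with some alternatives, as given next.

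The count of HoxC intervals in all HL EYFP+ and no FL EYFP+ library was 0 with 0.5 of the list length, with 500-bp intervals and with sites in the whole lists, and 1 to 3 with a library left out. Within 100 bp it was 1, but the interval was then at the Hoxc4 intron site. The reverse count was 0 to 1 with a library left out. The posterior-only count was 0 with 0.5 of the length, the whole lists, 100 bp and sites in equal or whole lists, and 1 to 2 with a library left out. With the whole lists 1 of 31 HoxC intervals was called higher in the posterior portion, where 1748 of all 104745 were. The number called higher in E10.25 CKO was 0 with 0.5 of the length, the whole lists and 100 bp, 1 with 500-bp intervals and 0 to 2 with a library left out. The CKO-only count was 0 with 0.5 of the length, the whole lists and sites in whole lists, 1 with 100 bp and 2 to 5 with a library left out. With the whole lists 1 of 36 HoxC intervals was called higher in E10.25 WT, where 2628 of all 79371 were. In the same lists 1 of 36 was listed in all WT and no CKO library, where 3083 of all were. It was the same interval, and 1 of its 2 WT summits belonged to the site between Hoxc8 and Hoxc6, which CKO also listed. The counts for Etv2OE anterior and control anterior were 0 to 1 with a library left out. Causes were not tested, other than that shorter lists test fewer intervals.

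With the shared number as a replicate block limma called 0 HoxC intervals in either direction, with a lowest adjusted p of 0.51, and 0 of all intervals, against 157 without it. With the embryo as a block the counts for anterior and posterior were 0 as well. The difference in HoxC intervals per library, -5.67 (forelimb minus hindlimb), ranged from -7.5 to -3.17 with a library left out, and was -1.33 with 0.5 of the length (exact permutation p = 0.7). Flipping signs within shared numbers gave an exact p of 0.25. Summits at member starts numbered 74 of the pairs of gene and library, 43 within 250 bp, 134 within 1000 bp and 90 at any annotated start. The depth of the libraries is unknown.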
